A study of Arabidopsis thaliana with 9 samples.

Results

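The *exg1-1* mutant of *Arabidopsis thaliana* was compared with its wild-type background Col-0 in whole seedlings, using the 3 libraries that the sample labels assign to each genotype, 6 of the 9 libraries of the series. The mutant is spelled evg1-1 in the sample labels and *exg1-1* in the study, where it is a SALK insertion line for *EXG1* (AT3G08030). By the sample labels it was represented by this 1 T-DNA allele. The remaining 3 libraries, of the *rlp44-3* mutant of *RLP44* (AT3G49750), were compared with the same Col-0 libraries, so values of the 2 mutants are given side by side only. All seedlings shared the Col-0 background, were harvested at 7 days from plates kept at 20 °C under short days (8 h light, 16 h dark), and no further treatment is named. The comparison asks which transcripts differ in seedlings of the *EXG1* insertion line.

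*EXG1* encodes a secreted protein of the plant-specific DUF642 family, whose members are found in the cell wall and bind wall polysaccharides. *RLP44* is a receptor-like protein of the plasma membrane that relays the state of the cell wall through the brassinosteroid receptor *BRI1* and its coreceptor *BAK1*. In seedlings, expansins and xyloglucan-modifying XTH enzymes loosen and remodel the wall. Seed storage transcripts and late embryogenesis abundant (LEA) transcripts, which are made while the embryo dries, normally decline after germination, and sugar supply, light and the hormone abscisic acid each set the level of their own groups of genes.

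The deposited values were not counts. Within each genotype the 3 columns differed only by a constant factor, the same for every gene, and no value was whole, so each genotype contributed 1 fitted value per gene and the spread between replicates could not be measured. No p-value is therefore given, a gene was called where it was at least 2-fold apart, and intervals are exact 95% intervals that cover counting error only, computed as if the summed fitted values were reads. Column totals ran from 8364383 to 9606982 in Col-0 and from 10396228 to 12971468 in *exg1-1*. Levels are fitted reads relative to the library total (CPM) on the scale of Col-0, given in the order Col-0, *exg1-1* and *rlp44-3*, and differences are log2 fold changes of *exg1-1* over Col-0, both after scaling by the trimmed mean of M-values (TMM). Of 25717 genes with values, 19193 reached a mean of 10 reads per column in at least 1 of the 2 genotypes and were kept.

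Both mutated genes were lower in the mutant named for them. *EXG1* stood at 864, 973 and 992 fitted reads in the 3 Col-0 columns and at 339, 412 and 423 in the 3 *exg1-1* columns. *EXG1* was at 103, 33.7 and 93.7 CPM, so that *exg1-1* retained 32.6% of the Col-0 level, a log2 fold change of -1.62 (95% counting interval -1.71 to -1.52). *EXG1* mRNA was thus reduced and not absent, and the table does not say in which part of the gene the remaining reads lie. *RLP44*, by contrast, was at 3.73, 3.01 and 0.0317 CPM, a log2 fold change of -0.31 (95% counting interval -0.72 to 0.10) in *exg1-1* whose interval includes 0.

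Most of the transcriptome was close to Col-0. Among the 19193 genes, 189 (0.985%) were at least 2-fold higher in *exg1-1* and 271 (1.41%) were at least 2-fold lower, while 17682 (92.1%) were under 1.5-fold apart. The median log2 fold change was -0.01 and the quartiles were -0.17 and 0.15. At a threshold of 1.5-fold, 584 genes (3.04%) were higher and 927 (4.83%) were lower. The genes at least 2-fold lower rested on few reads, with a median of 24.6 fitted reads per column in Col-0, against a median of 53.4 in *exg1-1* for the genes at least 2-fold higher. A total of 86 of the 189 and 138 of the 271 passed the filter through 1 genotype alone. Of all genes kept, 420 passed through *exg1-1* alone and 243 through Col-0 alone. Passing through Col-0 alone forced a lower value, whereas passing through *exg1-1* alone favoured a higher value but, after scaling, did not force it. Neither forced a 2-fold call, and such members are named where a list is counted. Among the 2-fold calls, the counting interval lay wholly beyond 2-fold for 73 of the higher and 116 of the lower genes. Because whole seedlings were used, fewer cells of a type and less RNA per cell cannot be told apart in any of these values.

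**Figure D1:**
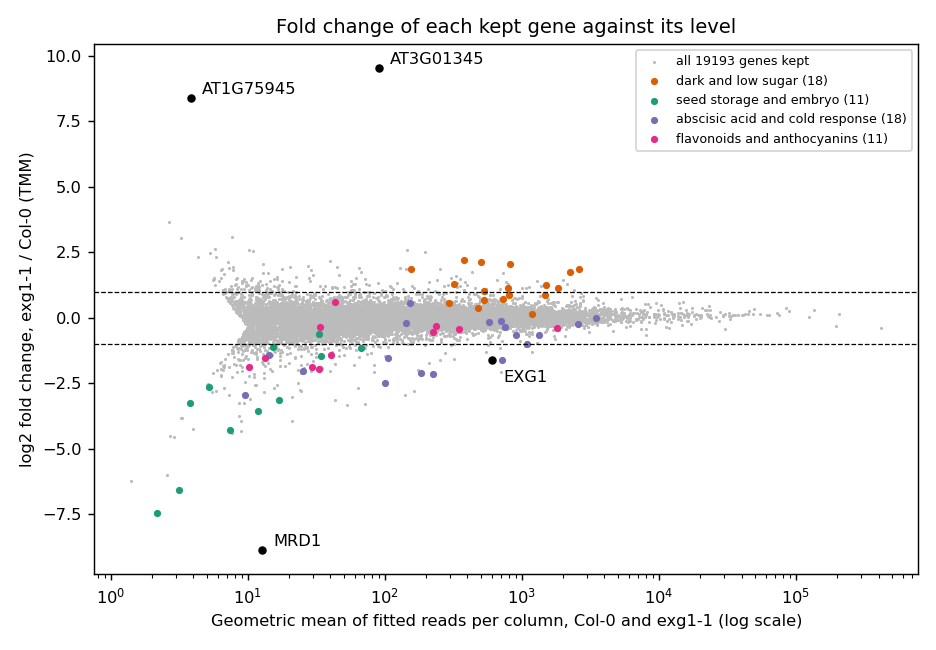
Log2 fold change of *exg1-1* over Col-0 (y axis) against the geometric mean of the fitted reads per column in the 2 genotypes (x axis, log scale) for the 19193 genes kept, 1 point per gene, with dashed lines at 2-fold. Low-sugar genes lie above 0, and seed and abscisic acid genes mostly lie below it. *AT3G01345* and *AT1G75945* lie far above 0, and *MRD1* lies far below it at -8.87, as does the seed gene *CRC* at -7.47.

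Among genes with a mean of at least 30 reads in the higher genotype, 3 differed so widely that their transcripts were nearly present or absent. *AT3G01345*, which the annotation lists as an uncharacterized protein, was at 2.69 to 3.09 fitted reads in the Col-0 columns and at 2404 to 2999.7 in the *exg1-1* columns, or 0.322, 239 and 0.147 CPM. Its log2 fold change was 9.54 (95% counting interval 8.60 to 10.68). *AT1G75945*, also uncharacterized, had no more than the bottom value of the table in Col-0 and in *rlp44-3* but 68.7 to 85.8 fitted reads in *exg1-1*, at least 62.3-fold higher if 3 reads in all are allowed for Col-0. *MRD1*, a gene named for its response in a methionine-overaccumulating mutant, went the other way, with 224 to 257 fitted reads in Col-0 and 0.578 to 0.721 in *exg1-1*. *MRD1* was at 26.8, 0.0575 and 25.7 CPM, so its level was low in *exg1-1* but not in *rlp44-3*. The meiotic ubiquitin ligase gene *HEI10*, which lies 2 annotated genes from *MRD1*, was also lower, at 5.10, 1.64 and 4.19 CPM, and both genes overlap a gene on the other strand, so their reads are uncertain if strand was not used in counting. *ABI4*, a transcription factor of abscisic acid and sugar signalling in seeds, and the cruciferin gene *CRC* were at the bottom value of the table in *exg1-1*, at least 13.7-fold and at least 32.7-fold lower than in Col-0.

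*THA1* and *BCB* followed *AT3G01345* and *AT1G75945* among the 12 highest genes. *THA1*, a threonine aldolase that breaks down threonine, was at 5.78, 34.7 and 1.46 CPM, a log2 fold change of 2.58 (95% counting interval 2.34 to 2.83), and lay below Col-0 in *rlp44-3*. *BCB*, a blue copper-binding protein of the cell surface, was at 8.01, 46.1 and 5.36 CPM, with a log2 fold change of 2.52 (95% counting interval 2.32 to 2.73). The remaining genes of the 12 highest, after *AT3G01345* and *AT1G75945*, had log2 fold changes from 1.89 to 2.22 and are given with their groups or here. *HR4*, a homologue of the RPW8 powdery mildew resistance proteins, was at 1.83, 8.16 and 2.15 CPM. The phloem lectin-like gene *PP2-A5* was at 2.21, 8.61 and 4.03 CPM, and *EARLI1*, a lipid transfer-like protein, was at 3.25, 12.1 and 4.94 CPM. *AT4G37220*, of the WCOR413 cold acclimation family, and *AT1G19380*, whose role is not known, had log2 fold changes of 1.98 and 1.95. In *rlp44-3* the corresponding log2 fold changes of these 2 genes were 0.13 and 1.18. *AT3G01345*, *AT1G75945* and *AT1G19380* passed the filter through *exg1-1* alone, which favoured a higher value.

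Of the 32 gene lists, that of genes induced by darkness and low sugar had the highest median. All 18 listed genes were kept and all 18 were higher in *exg1-1*, 11 of them at least 2-fold, where 0.985% of all genes kept were, and 15 at least 1.5-fold. Their median log2 fold change was 1.15, against -0.01 for all genes kept, and their levels summed to 1093, 2649 and 1833 CPM. Under upper quartile or column total scaling 10 and not 11 of them were at least 2-fold higher. The list was written with earlier results of these data known, and members beyond the 4 largest differences of any list were chosen after their values were seen.

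*SEN1*, a gene of dark-treated and ageing leaves, was at 16.9, 78.9 and 27.2 CPM, a log2 fold change of 2.22 (95% counting interval 2.08 to 2.37). *BT2*, a BTB-TAZ scaffold protein that responds to sugar and nitrogen, was at 23.4, 103 and 60.5 CPM, and *ASN1*, the asparagine synthetase that stores nitrogen in the dark, was at 38.6, 162 and 32.1 CPM. Both were about as far apart as *SEN1*, with log2 fold changes of 2.14 (95% counting interval 2.02 to 2.26) and 2.07 (95% counting interval 1.97 to 2.16), and in *rlp44-3* *BT2* lay above Col-0 while *ASN1* lay below it. *DIN10*, a raffinose synthase-family gene named as dark-inducible, was at 132, 481 and 241 CPM. *SEN5*, another gene of senescing leaves, had a log2 fold change of 1.76.

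Several members serve the breakdown of amino acids. *BCAT2*, a branched-chain aminotransferase, was at 7.87, 28.4 and 2.94 CPM. *MCCA*, a subunit of the methylcrotonyl-CoA carboxylase that degrades leucine, was at 19.7, 48.5 and 16.2 CPM, and *ProDH1*, which opens proline breakdown, was at 119.9, 266 and 159 CPM. *BCAT2* and *MCCA* lay below Col-0 in *rlp44-3*, where their log2 fold changes were -1.42 and -0.28, and *ProDH1* lay above it at 0.41. The class II trehalose phosphate synthases on the list, proteins of sugar signalling, were also higher. Their log2 fold changes were 1.01 for *TPS11*, 0.73 for *TPS8*, 0.67 for *TPS9* and 0.38 for *TPS10*. *KMD1* and *KMD4*, F-box proteins that limit cytokinin responses, had log2 fold changes of 1.14 and 0.89 in *exg1-1* and 1.66 and 1.35 in *rlp44-3*. *ASN1*, *BCAT2*, *MCCA*, *DIN10*, *SEN5* and *KMD4* each overlap a gene on the other strand.

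**Figure D2:**
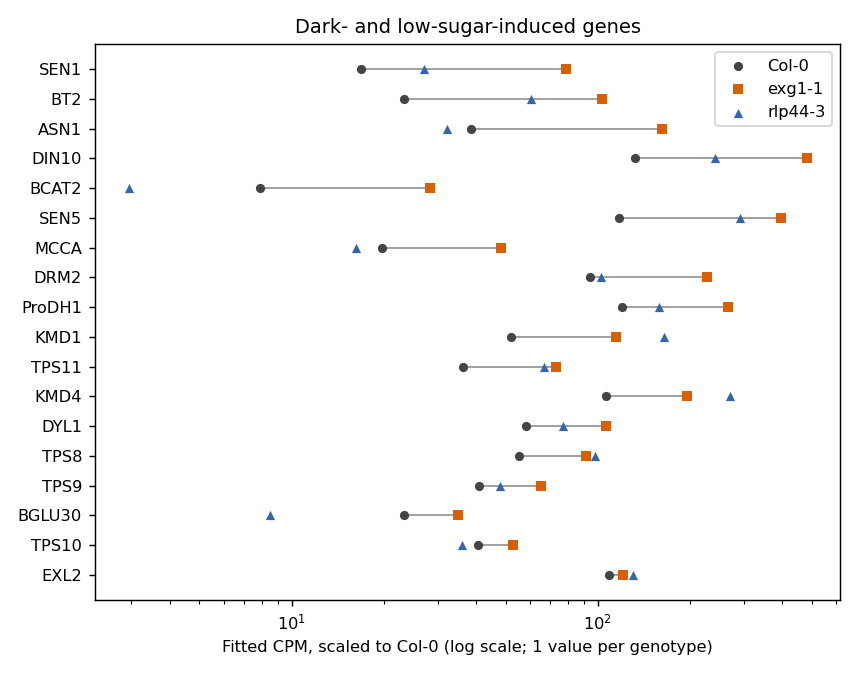
Fitted CPM on the scale of Col-0 (x axis, log scale) of the 18 dark- and low-sugar-induced genes in Col-0 (circles), *exg1-1* (squares) and *rlp44-3* (triangles), 1 value per genotype with no error bar because the table holds no replicate spread. In each gene the *exg1-1* value lies to the right of Col-0, from a log2 fold change of 0.15 for *EXL2* to 2.22 for *SEN1*, while *rlp44-3* lies on either side.

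Genes of light, photosynthesis and the clock were closer to Col-0. The 18 nuclear photosynthesis genes, which encode light-harvesting proteins and the small subunit and activase of Rubisco, were all under 1.5-fold apart, with a median of 0.13 and a largest log2 fold change of 0.38 for *RCA*. All 9 morning genes and all 9 evening genes of the circadian clock were kept, and their medians were 0.20 and 0.37. None of them was at least 2-fold apart. *RVE1*, a morning MYB factor, was at 15.0, 23.3 and 19.7 CPM, and *PRR3*, an evening pseudo-response regulator, was at 1.60, 2.90 and 2.24 CPM. *BOA*, 1 of the evening genes, passed the filter through *exg1-1* alone, which favoured a higher value. The median of the 8 evening genes that passed in both genotypes was 0.29. All 9 evening genes were higher under each scaling, whereas of the 9 morning genes *CDF1*, at a log2 fold change of 0.02, was lower under upper quartile and column total scaling. Of 11 kept light and shade genes, *PAR1*, a shade-induced growth repressor, and *XTH15* were at least 1.5-fold higher, against 3.04% of all genes kept. *ELIP1*, a chlorophyll-binding protein of strong light, was at least 1.5-fold lower, against 4.83%. Of 10 kept nitrate-responsive genes 3 were at least 1.5-fold higher, against 3.04% of all genes kept, and none was at least 1.5-fold lower, with the nitrate reductase *NIA2* at 464, 811 and 494 CPM and *NIA1* at 196, 341 and 228 CPM. *NRT3.1*, a partner of nitrate transporters, was the third, at 16.3, 26.1 and 22.7 CPM.

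Kept genes of seed storage and the embryo lay below Col-0. Of 17 listed seed storage and embryo genes 11 were kept, and 10 of them were at least 2-fold lower in *exg1-1*, where 1.41% of all genes kept were. All 11 were at least 1.5-fold lower, with a median log2 fold change of -3.14. *CRC*, *SESA3*, *EM1*, *ECP63*, *OLEO4*, *CRA1* and *OLEO1* passed the filter through Col-0 alone, so they had to lie lower and the counts describe the kept genes only. The levels of all 11 kept genes summed to 41.6, 11.3 and 7.28 CPM, and their median became -1.13 when 10 reads were required in both genotypes.

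*CRA1*, a cruciferin storage protein, was at 4.84, 0.547 and 0.389 CPM, a log2 fold change of -3.14 (95% counting interval -3.92 to -2.45). The LEA protein gene *ECP63* was at 3.97, 0.338 and 0.355 CPM, and the oil body protein *OLEO2* was at 5.56, 2.00 and 0.565 CPM. *OLEO2* was lower in *rlp44-3* than in *exg1-1*, whereas *ECP63* was at nearly the same level in both mutants. *PER1*, a seed peroxiredoxin, was at 9.66, 4.36 and 2.90 CPM. The 12 lowest genes of the comparison also included *AT1G04560*, an AWPM-19-like membrane protein, at 7.90, 0.519 and 0.540 CPM, and *AT2G47780*, a gene related to rubber elongation factors, at 3.39, 0.223 and 0.384 CPM. *AT1G65090* (annotated as nucleolin), *AT5G04120* (a phosphoglycerate mutase-family gene) and *AT1G54870* (an NAD(P)-binding protein) had log2 fold changes of -4.41, -4.33 and -3.13. Like *ECP63* and *CRA1*, the genes *MRD1*, *AT1G04560*, *AT2G47780*, *AT1G65090* and *AT5G04120* passed the filter through Col-0 alone, so they had to lie lower.

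LEA and dehydrin genes, whose products protect cells from drying, lay lower in part. Of 64 kept genes annotated as LEA or dehydrin proteins, 17 were at least 2-fold lower, against 1.41% of all genes kept, and 1 was at least 2-fold higher, against 0.985%, with a median log2 fold change of -0.29. Of the 17, 3 passed the filter through Col-0 alone, among them the dehydrin gene LEA (AT2G21490), so they had to lie lower. The 1 higher gene passed through *exg1-1* alone. *LEA7*, among the 12 lowest genes of the comparison, was at 38.1, 4.91 and 5.27 CPM. *AT3G15670* was at 21.9, 2.23 and 1.81 CPM and *LEA4-5* at 16.4, 1.64 and 0.943 CPM, and the dehydrin gene LEA (AT2G21490) was at 5.84, 0.718 and 0.508 CPM. The 4 genes had log2 fold changes between -3.32 and -2.96 in *exg1-1* and between -4.12 and -2.85 in *rlp44-3*.

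Genes of abscisic acid and cold responses lay lower as well. Of 19 listed genes 18 were kept, 9 were at least 2-fold lower, against 1.41% of all genes kept, 11 were at least 1.5-fold lower, against 4.83%, and none was at least 1.5-fold higher, with a median of -0.84 in *exg1-1* and -0.72 in *rlp44-3*. *HAI2* and *RD20*, counted among the 9, passed the filter through Col-0 alone, and the median of the 16 genes that passed in both genotypes was -0.67. Summed over the list, levels were 1529, 1098 and 1099 CPM. *KIN1*, a small cold- and abscisic acid-induced protein, was at 23.0, 4.06 and 7.51 CPM, a log2 fold change of -2.50 (95% counting interval -2.78 to -2.24). *COR15A*, a chloroplast protein that protects membranes from freezing, was at 46.3, 10.4 and 19.3 CPM, and its neighbour *COR15B* was at 17.6, 6.02 and 9.71 CPM. *RD29B*, induced by abscisic acid and drought, was at 36.7, 8.59 and 5.17 CPM, and the dehydrin *RAB18* was at 121, 40.0 and 43.2 CPM. *HAI1* and *HAI2*, protein phosphatases that restrain abscisic acid signalling and are induced by it, had log2 fold changes of -2.03 and -2.96. Other response genes, by contrast, were within 1.5-fold of Col-0. *COR47* was at 338, 334 and 298 CPM, and *COR47*, *LTI30* and *RD22* had log2 fold changes of -0.02, -0.35 and -0.23. The phosphatases *ABI1* and *ABI2* and the transcription factor *ABF3* were also within 1.5-fold, with log2 fold changes of -0.12, -0.21 and -0.17. *RD26*, a NAC factor, was the 1 member above Col-0, with a log2 fold change of 0.58. The transcription factor *CBF3*, which switches on COR genes in the cold and is counted with the stress factors below, was at 2.72, 1.37 and 1.33 CPM. Its relative *CBF2* was at 2.33, 2.40 and 1.21 CPM. *CBF1* fell short of the filter, with 1.00, 4.35 and 4.33 fitted reads per column.

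**Figure D3:**
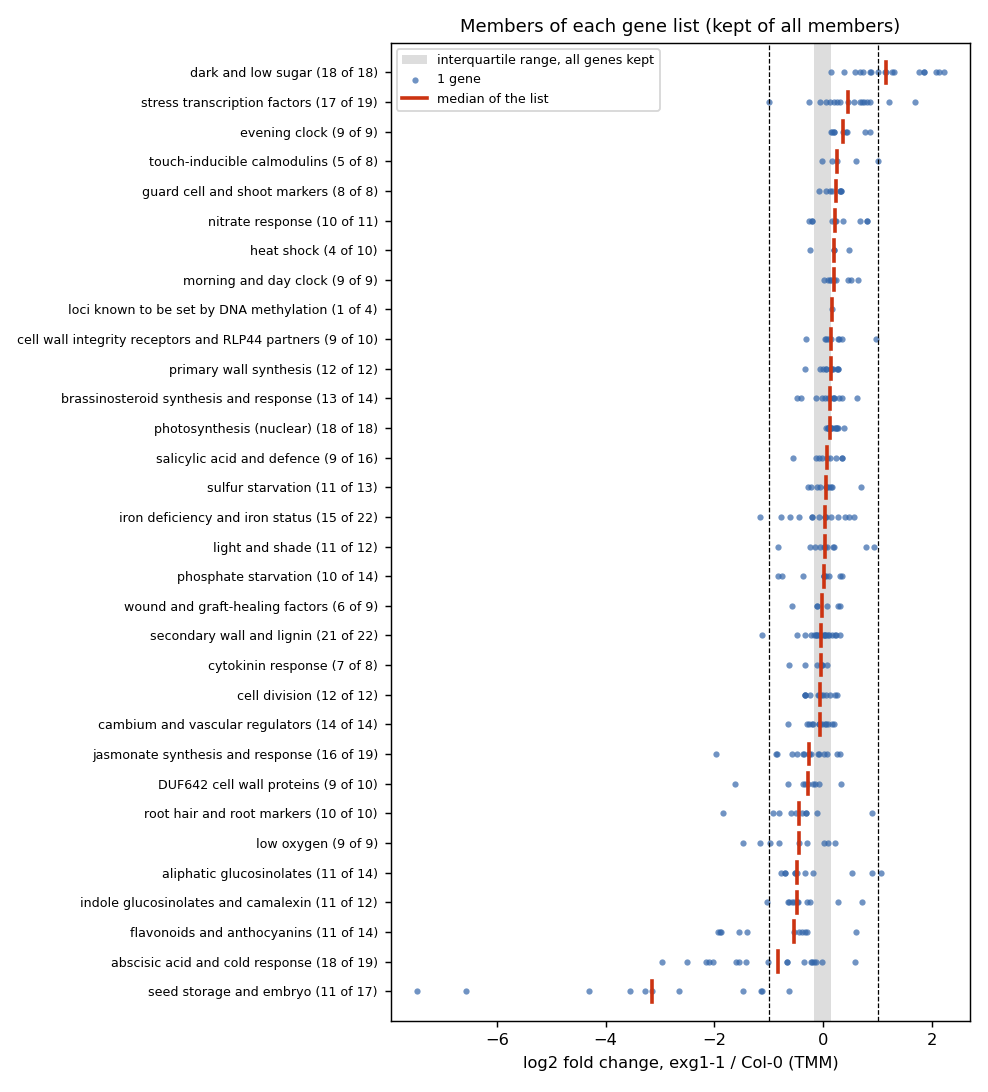
Log2 fold change of *exg1-1* over Col-0 (x axis) for every kept member of 32 gene lists (1 point per gene, kept members of all members in parentheses), with the median of each list as a vertical bar, dashed lines at 2-fold and the interquartile range of all genes kept, -0.17 to 0.15, in grey. The dark and low sugar list lies highest, at a median of 1.15, and the seed storage and embryo list lies at -3.14, where 7 of its 11 kept genes passed the filter through Col-0 alone and the median was -1.13 with 10 reads required in both genotypes.

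Genes of late steps of anthocyanin synthesis lay further below Col-0 than genes of early steps. Of 14 flavonoid genes 11 were kept, 5 were at least 2-fold lower, against 1.41% of all genes kept, and 1 was at least 1.5-fold higher, against 3.04%, with a median of -0.54. *TT19*, the glutathione transferase that carries anthocyanins, was at 6.25, 1.63 and 4.55 CPM, *DFR*, the dihydroflavonol reductase, at 5.46, 1.47 and 4.66 CPM, and *LDOX*, the anthocyanidin synthase, at 6.42, 2.43 and 4.32 CPM. The glucosyltransferase *UF3GT* and the MYB activator *PAP1* were at low levels and passed the filter through Col-0 alone, with log2 fold changes of -1.89 and -1.55. *CHS*, *CHI*, *F3H* and *FLS1*, which make flavonols and their precursors, had log2 fold changes from -0.54 to -0.30. *F3'H*, the flavonoid hydroxylase, was the 1 member above Col-0, at 3.40, 5.16 and 4.53 CPM. In *rlp44-3* the median of the list was -0.13, and *TT19*, *DFR* and *LDOX* had log2 fold changes of -0.46, -0.23 and -0.57.

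The 11 kept genes of indole glucosinolates and camalexin had a median of -0.49, and 1 was at least 2-fold lower, against 1.41% of all genes kept. This was *PAD3*, the last enzyme of camalexin synthesis, which passed the filter through Col-0 alone and had a log2 fold change of -1.03, whereas *CYP81F2*, which modifies indole glucosinolates, was at least 1.5-fold higher, with a log2 fold change of 0.72. The regulator *MYB34* was at 53.2, 33.8 and 39.5 CPM and *CYP83B1*, which commits indole intermediates to glucosinolates, at 143, 92.8 and 138 CPM. The 11 kept aliphatic glucosinolate genes also had a median of -0.49, but they ranged from -0.77 for the regulator *MYB29* to 1.07 for *CYP79F2*, an early enzyme of the pathway that passed the filter through *exg1-1* alone. *MAM3*, which lengthens the side chain, also lay higher, with a log2 fold change of 0.90, and the median of the list was 0.28 in *rlp44-3*. Of 16 kept jasmonate genes 1 was at least 2-fold lower, against 1.41% of all genes kept, namely *VSP1*, a vegetative storage protein induced by jasmonate, at 6.43, 1.64 and 4.81 CPM. *LOX2*, a lipoxygenase at the start of jasmonate synthesis, was at 43.9, 24.2 and 49.9 CPM, and *VSP2* was at 4.64, 2.57 and 4.13 CPM. The jasmonate repressors *JAZ1*, *JAZ2*, *JAZ6*, *JAZ9* and *JAZ10* were under 1.5-fold apart, between -0.26 and 0.30.

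Genes of wall remodelling were divided. Of 21 kept expansin genes 1 was at least 2-fold lower (all genes kept, 1.41%), 6 were at least 1.5-fold lower (all genes kept, 4.83%) and 1 was at least 1.5-fold higher (all genes kept, 3.04%), with a median of -0.36. The 1 at least 2-fold lower, the expansin-like gene *EXLB1*, passed the filter through Col-0 alone, with a log2 fold change of -1.89. *EXPB3*, a beta-expansin, was at 175, 89.9 and 156 CPM, *EXPA15* at 27.1, 15.3 and 20.0 CPM and *EXPA4* at 38.7, 25.2 and 35.7 CPM, while *EXPA17* was higher, at 2.14, 3.78 and 1.77 CPM. Of 24 kept genes with an XTH symbol 4 were at least 2-fold lower, against 1.41% of all genes kept, and 1 was at least 2-fold higher, against 0.985%, with a median of 0.04. *XTH13*, counted among the 4, passed the filter through Col-0 alone. The family split by member, with *XTH19* at 15.2, 4.35 and 7.74 CPM and *XTH20* at 11.6, 5.46 and 12.3 CPM on the lower side and *XTH24* at 88.3, 202 and 78.8 CPM and *XTH4* at 213, 341 and 259.6 CPM on the higher side. *TCH4*, a touch-induced XTH enzyme counted outside the symbol search, was at 17.3, 49.5 and 55.5 CPM. *XTH19* and *XTH24* are 2 annotated genes apart and lay in opposite directions, as did *XTH13* and *TCH4*. All expansins and XTH enzymes named here were chosen after their values were seen, other than the 5 that belong to a neighbouring pair or a list (*XTH13*, *XTH15*, *XTH19*, *XTH24* and *TCH4*).

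Wall synthesis and its receptors were near Col-0. All 12 primary wall genes, which include the cellulose synthases *CESA1*, *CESA3* and *CESA6*, were under 1.5-fold apart, between -0.34 and 0.27. Of 21 kept secondary wall and lignin genes 1 was at least 2-fold lower, against 1.41% of all genes kept, and none was at least 2-fold higher. The lower gene was the xylem regulator *VND6*, which was at a low level (1.88, 0.860 and 1.00 CPM) and passed the filter through Col-0 alone. Of 14 cambium and vascular regulators 1 was at least 1.5-fold lower, against 4.83% of all genes kept, and none was at least 1.5-fold higher. The lower gene was *TMO5*, which drives divisions of vascular cells in the root, at 11.0, 7.05 and 10.7 CPM. *WOX4*, *ATHB8* and *PXY*, which maintain the cambium, had log2 fold changes of -0.19, 0.05 and 0.03. Among 9 kept receptors of wall integrity and partners of *RLP44*, 1 was at least 1.5-fold higher, against 3.04% of all genes kept, and none was at least 1.5-fold lower. The higher gene was *MIK2*, a receptor kinase of wall damage and peptide sensing, at 38.2, 74.4 and 46.3 CPM. *BRI1*, *BAK1*, *FER* and *THE1* had log2 fold changes of 0.15, 0.03, 0.28 and 0.30. Of 13 kept brassinosteroid genes, 1 was at least 1.5-fold higher, against 3.04% of all genes kept, and none was at least 1.5-fold lower. The higher gene was the growth-related *EXO*, at 23.9, 36.8 and 41.1 CPM.

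Among kept genes of the DUF642 family, to which *EXG1* belongs, none was at least 1.5-fold higher. Of 10 genes 9 were kept, and *AT2G41810* fell short of the filter. Of the 8 other than *EXG1* only *BDX*, a regulator of pectin methylesterification, was at least 1.5-fold lower, against 4.83% of all genes kept. *BDX* was at 25.8, 16.5 and 18.2 CPM. *DGR1*, *DGR2* and *TEB* had log2 fold changes of -0.28, -0.19 and -0.15, and *AT2G34510*, the 1 kept member above Col-0, had a log2 fold change of 0.33.

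Of 17 kept stress-related transcription factors, 2 were at least 2-fold higher, against 0.985% of all genes kept, and 7 were at least 1.5-fold higher, against 3.04%. In the other direction 1 was at least 1.5-fold lower, against 4.83%. The median of the list was 0.47 in *exg1-1* and 0.72 in *rlp44-3*. *WRKY40*, *WRKY53* and *ORA47*, 3 of the 7 and including both at least 2-fold higher, passed the filter through *exg1-1* alone, and the median of the 14 genes that passed in both genotypes was 0.28. The RAV-family repressors *RAV1* and *TEM2* were at 44.4, 80.6 and 87.9 CPM and 52.7, 89.1 and 133 CPM. *ERF104*, an ethylene response factor, was at 4.45, 7.79 and 13.4 CPM. *WRKY40* and *WRKY53* were at low levels, with 0.696, 2.26 and 1.65 CPM and 0.476, 1.11 and 1.13 CPM. The 5 kept touch-induced calcium sensors had a median of 0.25. Of these, 1 was at least 2-fold higher, against 0.985% of all genes kept, and 2 were at least 1.5-fold higher, against 3.04%. *TCH3* was at 12.0, 24.1 and 18.7 CPM, just past 2-fold, which was no longer so under upper quartile or column total scaling. The other, *CML38*, had a log2 fold change of 0.60 and passed the filter through *exg1-1* alone. Across 45 kept WRKY genes 4 were at least 2-fold higher, against 0.985% of all genes kept, and none was at least 2-fold lower, and their median was 0.13. *WRKY49*, *WRKY40* and *WRKY53*, 3 of the 4, passed the filter through *exg1-1* alone, and the fourth, *WRKY22*, was at 2.55, 7.99 and 5.55 CPM. Of 22 kept cysteine-rich receptor-like kinases 3 were at least 1.5-fold higher, against 3.04% of all genes kept, 2 of them at least 2-fold, against 0.985%, and none was at least 1.5-fold lower, with a median of 0.37. None of the 9 kept salicylic acid and defence genes, the 4 kept heat shock genes or the 12 cell division genes was at least 1.5-fold apart.

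Of 10 root hair and root markers 1 was at least 2-fold lower (all genes kept, 1.41%), 4 were at least 1.5-fold lower (all genes kept, 4.83%) and 1 was at least 1.5-fold higher (all genes kept, 3.04%), with a median of -0.44 and a summed level of 2856 CPM in Col-0 and 2610.1 in *exg1-1*. The wall protein *PRP1*, the 1 at least 2-fold lower, passed the filter through Col-0 alone, with a log2 fold change of -1.84, and *RSL4*, a regulator of root hair growth and the 1 at least 1.5-fold higher, passed through *exg1-1* alone, with a log2 fold change of 0.90. The cell wall protein *PRP3* of root hairs was at 13.0, 6.80 and 9.41 CPM, *RHD6*, which starts root hair growth, at 3.79, 2.17 and 3.03 CPM, and *COBL9*, needed for hair growth, at 4.79, 3.18 and 4.13 CPM. *PYK10*, a root beta-glucosidase and a defining marker of the root, was at 2772, 2549 and 2913 CPM. This 1 gene made up most of the summed level of the root markers. The 8 guard cell and shoot markers were all under 1.5-fold apart, with a median of 0.24 and a summed level of 258 CPM in Col-0 and 313 in *exg1-1*. Markers of root and shoot were thus both detected, as the label of whole seedlings requires, and the part of a root to shoot difference in the values of other genes was not tested.

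Of 15 kept iron genes 1 was at least 2-fold lower, against 1.41% of all genes kept, and 3 were at least 1.5-fold lower, against 4.83%, with a median of 0.03. These 3 were the nicotianamine synthases *NAS4*, at 5.56, 2.48 and 5.42 CPM, and *NAS1*, at 25.4, 14.9 and 27.4 CPM, and the root regulator *FIT*, at 8.29, 5.42 and 8.77 CPM. In *rlp44-3* the 3 genes were within 1.5-fold of Col-0. *FRD3*, a citrate exporter that loads iron into the xylem, is the next annotated gene to *EXG1* on 1 side and was at 8.55, 4.47 and 7.06 CPM, a log2 fold change of -0.93 (95% counting interval -1.24 to -0.64). The other 5 kept genes within 5 annotated genes of *EXG1* had log2 fold changes between -0.08 and 0.33. *EXG1* and *FRD3* were therefore the only kept genes of this stretch that were at least 1.5-fold apart, and the part of the insertion itself in the *FRD3* value was not tested.

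Of 9 kept genes of low oxygen responses 2 were at least 2-fold lower, against 1.41% of all genes kept, and 4 were at least 1.5-fold lower, against 4.83%, with a median of -0.44. *ADH1*, the alcohol dehydrogenase of fermentation, was at 5.12, 1.83 and 2.26 CPM, the hemoglobin gene *HB1* at 3.75, 1.68 and 2.95 CPM, and *PDC1*, a pyruvate decarboxylase, at 13.0, 7.37 and 12.4 CPM. Of 10 kept phosphate starvation genes, the acid phosphatase *PAP17* and the phosphate exporter *PHO1;H1* were at least 1.5-fold lower, against 4.83% of all genes kept. They were at 7.69, 4.30 and 4.08 CPM and 7.98, 4.74 and 7.38 CPM. None of the 11 kept sulfur starvation genes was at least 2-fold apart. Of the 7 kept cytokinin response regulators *ARR16*, which passed the filter through Col-0 alone, was at least 1.5-fold lower, against 4.83% of all genes kept. Its log2 fold change was -0.62.

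Some genes that differed by 2-fold lay beside each other. There were 37 pairs of genes at most 3 annotated genes apart of which both members were at least 2-fold apart, 15 with both higher, 17 with both lower and 5 in opposite directions. How many such pairs the 460 called genes would give by position alone was not tested, so this count is a description only. A pair of clusters of root triterpene genes, which were picked out after their values were seen, were among the lower pairs. In the thalianol cluster, *THAS1*, the oxidosqualene cyclase that makes thalianol, was at 100.1, 44.6 and 105 CPM, *CYP708A2* at 53.5, 17.8 and 54.7 CPM and *CYP705A5* at 83.2, 34.0 and 68.9 CPM. The acyltransferase gene *AT5G47980* had a log2 fold change of -0.76, and *AT5G47950*, at the far end, one of -0.01. In *rlp44-3* the log2 fold changes of the 5 genes lay between -0.35 and 0.06. In the marneral cluster *CYP71A16* was at 7.37, 2.71 and 5.36 CPM, and *CYP705A12* and the cyclase *MRN1* were at low levels and passed the filter through Col-0 alone, with log2 fold changes of -1.36 and -4.24. The other kept genes in the stretches plotted around both clusters were within 1.5-fold of Col-0, except *XTH20*, which lies 6 annotated genes from *THAS1*.

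**Figure D4:**
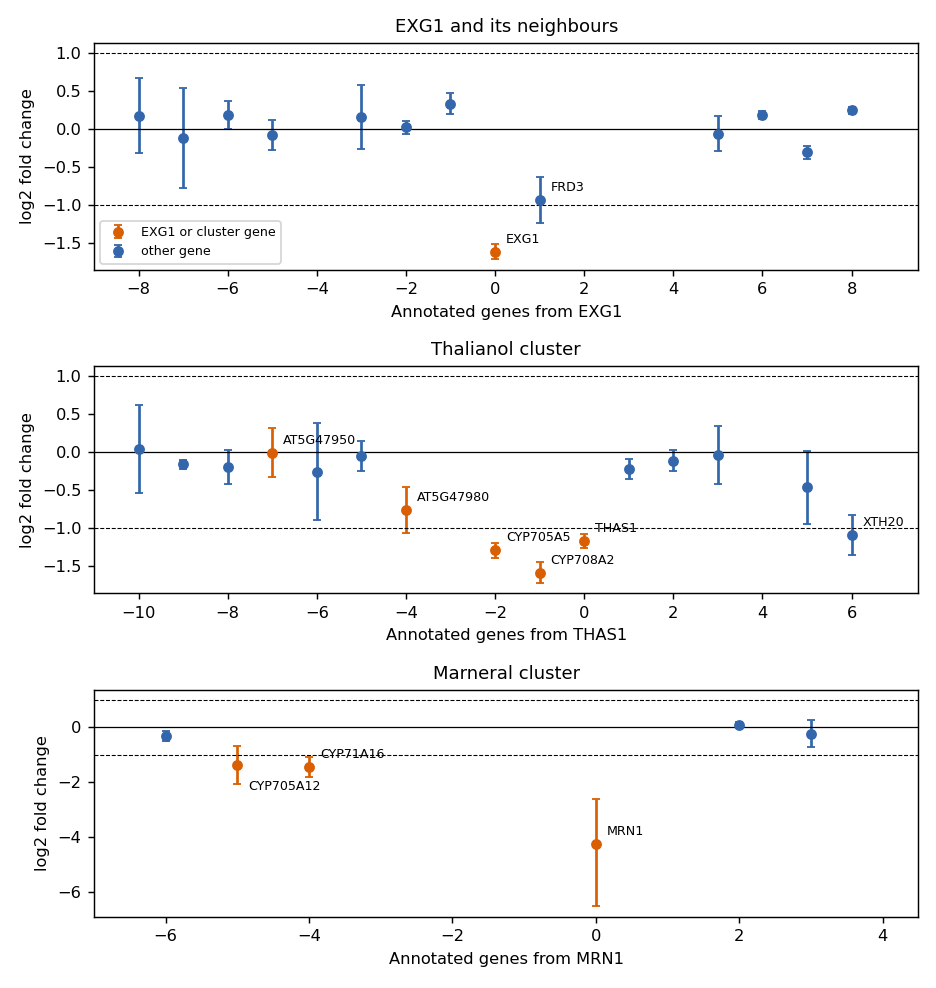
Log2 fold change of *exg1-1* over Col-0 (y axis) with 95% counting intervals (bars) for kept genes in their annotated order (x axis, number of genes from the reference gene) around *EXG1*, *THAS1* and *MRN1*, with dashed lines at 2-fold. *EXG1* and *FRD3* lie below their neighbours, as do 4 of the 5 genes of the thalianol cluster and the 3 genes of the marneral cluster.

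Pairs with both members higher included *AZI1* and *EARLI1*, lipid transfer-like proteins of systemic immunity, with *AZI1* at 24.9, 59.6 and 36.5 CPM. They also included 3 neighbouring class III glutaredoxin genes, *AT4G15680*, *AT4G15690* and *AT4G15700*, which had log2 fold changes of 1.26, 1.20 and 1.11 and were between -0.15 and 0.10 in *rlp44-3*. *PTR3*, a peptide transporter, was at 1.49, 5.34 and 1.80 CPM, and its neighbour *AT5G46040* had a log2 fold change of 1.83. *AT4G15680* and *AT5G46040* passed the filter through *exg1-1* alone. Among the lower pairs, *KIN1* and *COR6.6* and *COR15A* and *COR15B* belong to the abscisic acid and cold list above. Adjacent members of such pairs can be close copies of each other, and how reads that match several places were treated is not stated in the sources used here. Besides those already named, *ABF3*, *ABI1*, *ADH1*, *AT1G65090*, *AT2G47780*, *AT5G04120*, *AT5G46040*, *BAK1*, *BDX*, *BOA*, *CBF3*, *CESA1*, *CESA3*, *CHS*, *COR15B*, *DGR2*, *EARLI1*, *F3H*, *JAZ10*, *LEA7*, *OLEO1*, *OLEO2*, *ORA47*, *PAP17*, *PYK10*, *RAB18*, *RCA*, *RVE1*, *TCH3*, *THA1*, *TT19*, *VND6*, *WRKY40*, *WRKY53* and *XTH15* also overlap a gene on the other strand.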

How the data were processed

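Polyadenylated mRNA of whole seedlings was sequenced from directional libraries as 150 bp paired-end reads. Per the study's methods, the authors used fastp for trimming, HISAT2 for mapping to TAIR10, HTSeq-count for counting and DESeq2 for the comparison, with versions and the use of strand not given in the sources used here. Although named for raw counts, the table of 33341 rows that the authors deposited holds a fitted signal on the scale of reads, of which none was whole within 1e-06 and the 3 columns of a genotype are multiples of each other. The tests planned on counts were therefore not run. The columns named for *exg1-1* (evg1 and a number) give a genotype but not a library, and the number can be read as an allele or a replicate. They were used by genotype, since the sample labels name only evg1-1 for this gene. A further 3 columns, of a line outside the samples used here, were left out.

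The 3 columns were summed per genotype, genes with a mean of at least 10 per column in 1 of the 2 genotypes were kept, and TMM scaling (trimming 30% of log ratios and 5% of levels) was tested on simulated data. Scaling subtracted 0.35 (*exg1-1*) and 0.31 (*rlp44-3*) from the log2 ratios to Col-0. Intervals are exact conditional binomial intervals on the sums. Nothing in the labels says that libraries came from separate cultures. Gene names and gene order came from RefSeq (TAIR10.1), which held 25487 of the 25717 genes, and no coordinates are given because the builds differ.

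The 32 lists (416 genes), the families found by symbol and the comparisons were chosen with earlier results of these data known, and 10 further sets after values were seen. Named genes were *EXG1* and *RLP44*, the 12 highest and 12 lowest with a mean of at least 30 reads in the higher genotype, up to 4 members per list at least 1.5-fold apart with 30 reads, genes within 5 genes of *EXG1*, pairs at most 3 genes apart that were both at least 2-fold apart, and genes at the lowest value in 1 genotype with at least 10 in the other. Others were chosen after their values were seen. Alternatives were other scalings, filters and thresholds, organelle genes left out, values under 3 reads set to 3, and each column left out in turn. The tools were scipy 1.17.1, numpy 2.4.6, matplotlib 3.10.9 and pandas 2.3.3 under Python 3.11.15.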

Additional observations from a re-analysis of the deposited data

How the results depend on the processing

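No paired analysis was possible because the columns of a genotype are multiples of 1 fitted value and hold no replicate spread, so the replicate block was not run, and leaving out a column only moves the filter and the scaling. The count of genes at least 2-fold higher in exg1-1 was 189, and that of genes at least 2-fold lower in exg1-1 was 271. With no filter the counts were 998 and 1877, with 10 reads per column required in both genotypes 103 and 133, and with 30 reads in 1 genotype 101 and 115. At a threshold of 1.5-fold they were 584 and 927. Leaving out each column in turn gave 187 to 192 higher and 266 to 277 lower genes. Other scalings gave 170 to 189 higher and 269 to 298 lower genes. The EXG1 in exg1-1 log2 fold change lay between -1.66 and -1.59 under every alternative run. Of 1666 values of named genes and list medians under the alternatives, 0 changed sign while called and 16 moved by more than their counting error. Scaling moved log2 values by at most 0.05, so directions of genes nearer to 0 than that depend on it. Depth limits the seed, flavonoid regulator and WRKY values, which rest on few reads.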

Other observations

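A set of 12 genes for the breakdown of branched-chain amino acids was picked after its values were seen and includes *BCAT2* and *MCCA* of the low-sugar list, so its counts are a description only. All were kept, 11 lay above Col-0 in *exg1-1*, 6 of them at least 1.5-fold (all genes kept, 3.04%) and 4 at least 2-fold (all genes kept, 0.985%), and the median of all 12 was 0.53, against -0.09 for *rlp44-3*. *IVD*, the isovaleryl-CoA dehydrogenase, was at 29.3, 54.3 and 28.0 CPM, and *BCE2*, the transacylase of the branched-chain keto acid dehydrogenase, at 16.1, 32.3 and 17.6 CPM. Under upper quartile or column total scaling 3 and not 4 of the genes were at least 2-fold higher. *BT1* and *BT5*, relatives of *BT2*, were at 18.5, 56.5 and 28.3 CPM and 23.3, 60.5 and 95.8 CPM, whereas *BT3* had a log2 fold change of -0.23. *MIOX2*, a myo-inositol oxygenase that feeds wall sugar precursors, was at 39.2, 128 and 60.3 CPM. *SIP2*, a raffinose-metabolising relative of *DIN10*, was at 161, 336 and 242 CPM.

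A pair of enzymes of seed oil use were lower beside the seed genes. *ICL*, the isocitrate lyase, was at 140.2, 33.5 and 10.4 CPM, and *MLS*, the malate synthase of the same cycle, at 33.8, 8.46 and 5.70 CPM, while *PCK1*, *MFP2* and *KAT2* had log2 fold changes of 0.02, -0.25 and -0.09. The seed regulators *ABI3*, *ABI5* and *DOG1* had log2 fold changes of -0.27, -0.58 and 0.15. The lipid transfer protein genes *LTP2* and *LTP3* were at 181, 73.7 and 92.7 CPM and 6.39, 1.73 and 3.65 CPM, and *LTP1* had a log2 fold change of -0.36. Of 31 kept tau and phi glutathione transferases, enzymes of detoxification, 9 were at least 1.5-fold lower, against 4.83% of all genes kept, and none was at least 1.5-fold higher, with a median of -0.33, and *GSTU24* and *GSTU25* were at 77.8, 40.9 and 70.2 CPM and 94.9, 51.2 and 87.8 CPM. Of 65 kept MYB factors 3 were at least 2-fold lower (all genes kept, 1.41%) and 1 was at least 2-fold higher (all genes kept, 0.985%), the last being *MYB20* at 3.59, 8.35 and 9 CPM. *MYB47*, *MYB67* and *MYB102*, the 3 lower genes, passed the filter through Col-0 alone. These genes were also chosen after their values were seen.

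The 137 organelle genes kept took 2.83% of fitted reads in Col-0 and 2.99% in *exg1-1*, and their median log2 fold change was 0.25. The libraries were selected for polyadenylated mRNA, and the part of that selection in these values was not tested.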
